A study of Mus musculus with 6 samples.

Results

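The genes described here are 36 named genes of glucose use and of the hypoxia response. They comprise 3 membrane transporters, 16 glycolytic enzymes and 4 regulators of glucose flux. The others are 3 genes of the hypoxia-inducible factor (HIF) and its prolyl hydroxylases, and 10 HIF targets outside glycolysis. All 36 were chosen by symbol with earlier results of these data known, so their shares beside all genes are descriptions and not tests. Of these, 33 were measured by at least 1 probe set that the platform annotation assigns to that gene alone, through 74 of the 45101 probe sets on the array, and 21 of the 33 had several probe sets. Gpi1 and Eno1 were not analysed here, and Bnip3l was covered only by probe sets that also name Bnip3l-ps. The study hybridised 6 mouse arrays. Replicates 1, 2 and 4 of 2D11 were T cells labelled CD8aa Tregs, which the series title calls Qa-1-restricted CD8aa+TCRab+ cells. Replicates 1, 2 and 3 of OvacD8 were T cells labelled OT-1 CD8aa+TCRab+. All 6 samples carry the source name T cell clone, and all were cultured with IL-2, antigen-presenting cells and the antigen of each line.

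No strain, age, added treatment, oxygen level or day of culture stands in the labels. They also do not say whether replicates were separate cultures of 1 clone, so the p-values below reflect no more than the differences among these samples, part of which may be technical. RNA from the feeder cells of the culture may be present in either group. Both labels name the CD8aa form, and Cd8b1, which encodes the other chain of CD8, differed by −2.36 ± 0.11 (log2, 2D11 minus OvacD8, adjusted p = 0.00093 in limma). The deposited values were log2 values from which the median of the 6 arrays had been removed for every probe set. They show how arrays differ and not whether a gene was bright or dim, and 0 means the middle of the 6 arrays. A difference of 1 is 2-fold.

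Glycolysis splits glucose into pyruvate in the cytosol, and proliferating T cells run it fast and export much of the product as lactate. HIF-1 is a transcription factor whose alpha subunit is hydroxylated by prolyl hydroxylases when oxygen is present and is then degraded. When the alpha subunit is stable, HIF-1 binds a short DNA motif and raises the transcription of glucose transporters, glycolytic enzymes and many genes with no part in glycolysis, such as those for vessel growth, collagen hydroxylation and mitophagy. In T cells, antigen receptor and IL-2 signalling through MTOR and MYC also raise glycolytic genes without a lack of oxygen. Whether the HIF targets outside glycolysis followed the same arrays as the enzymes was therefore the question put to each OvacD8 array.

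Most of these genes were low on all 2D11 arrays and on OvacD8-1, and high on OvacD8-2 and OvacD8-3. For 29 of the 33 genes OvacD8-2 and OvacD8-3 both lay above all of the other 4 arrays, against 13.9% of all 18194 genes, and for 22 they did so by at least 1, against 1.36% of all genes. Pfkfb4, Eno3, Hif1a and Car9 were the 4 genes that did not follow these arrays. The median over the 33 genes was −0.030 on 2D11-1, −0.12 on 2D11-2 and −0.17 on 2D11-4, against −0.030 on OvacD8-1, 1.70 on OvacD8-2 and 1.63 on OvacD8-3. OvacD8-1 was thus level with the 2D11 arrays, and the other OvacD8 arrays stood well above them. Over these genes the median absolute difference of OvacD8-1 was 0.151, 0.195 and 0.305 from 2D11-1, 2D11-2 and 2D11-4, and 1.69 and 1.77 from OvacD8-2 and OvacD8-3. OvacD8-2 and OvacD8-3 differed from each other by 0.0746, and 0 of the 33 genes differed by 1 or more between them, against 0.137% of all genes. The 2D11 arrays spanned 1 or more for 0 of the 33, against 0.511%. OvacD8-1 was lower than the mean of OvacD8-2 and OvacD8-3 by at least 1 for 23 genes, against 2.43%. The 2D11 mean was lower by at least 1 than OvacD8-2 for 25 genes, against 4.07%, and than OvacD8-3 for 24, against 3.99%.

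**Figure D1:**
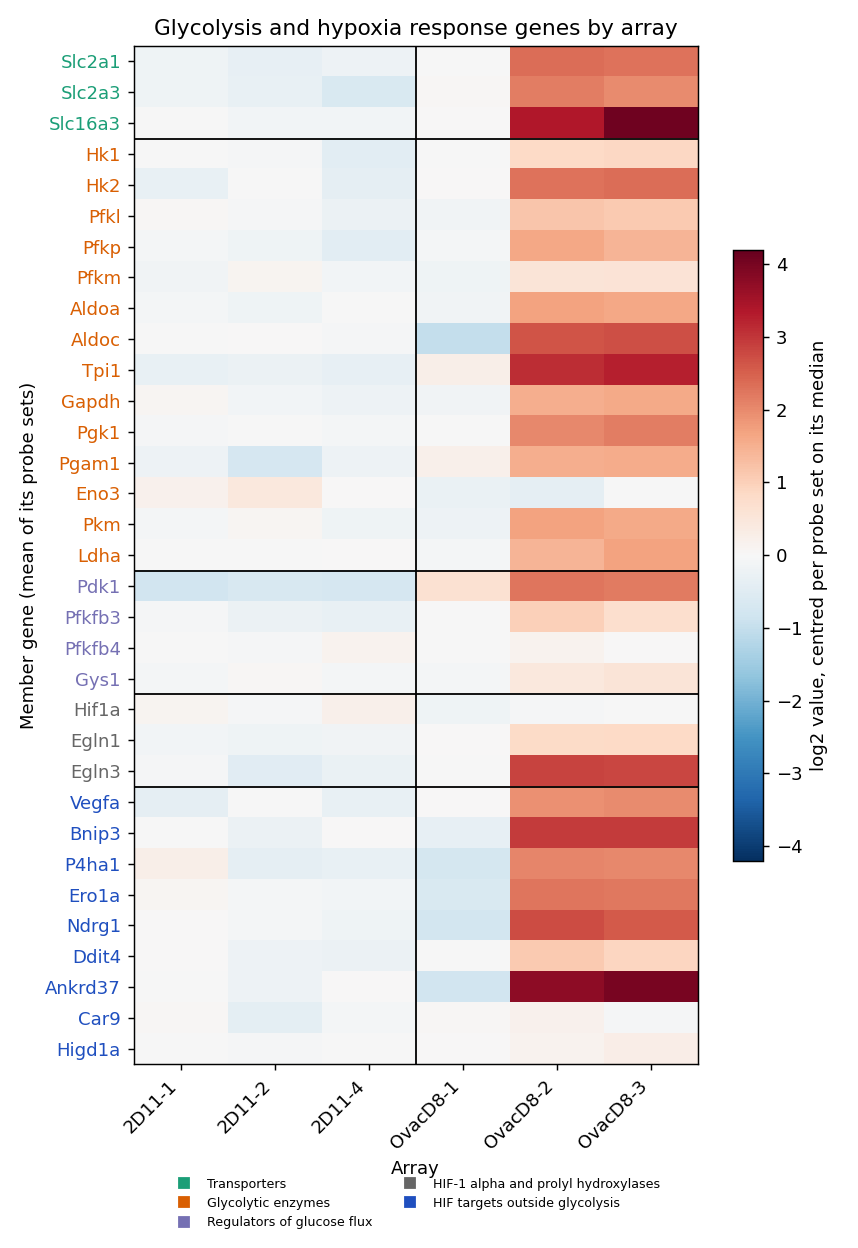
Heat map of the 33 measured genes (rows, grouped by role) on the 6 arrays (columns, 2D11 left of OvacD8), coloured by log2 value centred on the median of the 6 arrays. OvacD8-2 and OvacD8-3 are high for 29 genes, while OvacD8-1 is close to the 2D11 arrays for most.

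Since OvacD8-1 differed from its own group, the comparison of the groups over all arrays had wide errors. In limma with Benjamini-Hochberg adjustment over all genes, 0 of the 33 genes passed at an adjusted p under 0.05, where 3.37% of all genes passed as lower in 2D11 and 3.3% as higher, 6.67% in all. At an unadjusted p under 0.05, 8 of the genes were lower in 2D11, where 9.09% of all genes were, and 1 was higher, where 10.8% were. Without OvacD8-1, 29 of the 33 passed as lower in 2D11, against 9.42% of all genes, and 0 passed as higher, against 7.8%. Leaving out any other array instead gave 0 of the 33. OvacD8-1 is the array that lacked the difference in most of these genes, so the 29 follow in part from leaving it out. The adjusted p-values without OvacD8-1 given below describe OvacD8-2 and OvacD8-3 and are not separate support for a group difference. The groups of 3 arrays did not overlap for 14 genes lower in 2D11, against 10.7% of all genes, and for 1 gene higher in 2D11, against 12.6%. OvacD8-1 lay above all 2D11 arrays for 15 of the 33 genes, against 29.3% of all genes, and below all of them for 11, against 22.2%. The median difference of the 2D11 mean was −0.037 from OvacD8-1, −1.85 from OvacD8-2 and −1.72 from OvacD8-3. The size of the differences thus came mainly from OvacD8-2 and OvacD8-3.

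**Figure D2:**
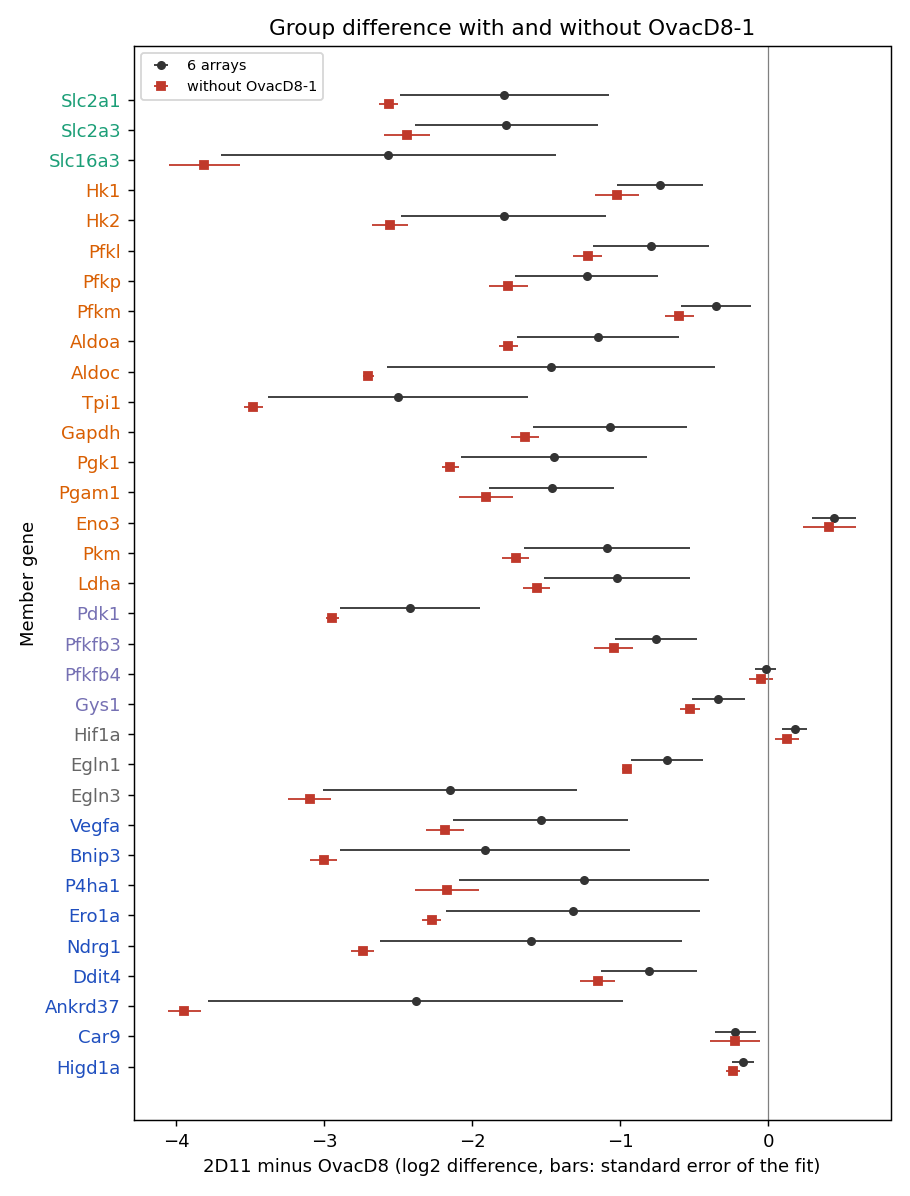
Log2 difference of 2D11 minus OvacD8 for each of the 33 genes, with the standard error of the limma fit, over all 6 arrays (black circles) and without OvacD8-1 (red squares). For the 29 genes that passed without OvacD8-1, the differences lie further below 0 in that fit and their errors are smaller.

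Some other measures also set OvacD8-2 and OvacD8-3 apart. The poly-A spike-ins, bacterial RNAs added to a sample before amplification, averaged −0.11, 0.11 and 0.82 over 24 probe sets on 2D11-1, 2D11-2 and 2D11-4, against 0.49 on OvacD8-1, −1.58 on OvacD8-2 and −2.39 on OvacD8-3. They were lowest on the arrays where the glycolytic genes were highest. The hybridisation controls, a separate set of array controls, averaged 0.15, −0.15 and 1.09 on 2D11-1, 2D11-2 and 2D11-4. On OvacD8-1, OvacD8-2 and OvacD8-3 they averaged 0.40, −0.35 and −0.80, and so were lowest on the same arrays. The 3′ minus 5′ value of Actb, a sign of RNA quality, was −0.12, 0.085 and 0.19 in 2D11, against 0.092, −0.38 and −0.32 on OvacD8-1, OvacD8-2 and OvacD8-3. The same measure of Gapdh was −0.15, 0.27 and 0.20 in 2D11, against −0.016, −0.14 and −0.22 in OvacD8. The Actb measure was lowest on OvacD8-2 and OvacD8-3, whereas that of Gapdh was lower on 2D11-1 than on OvacD8-2. For Pcx and Tfrc, the other genes with such probe sets, OvacD8-2 and OvacD8-3 had 0.011 and 0.011 and 0.15 and −0.013, and did not stand apart from the other arrays in both. Correlations were taken over probe sets spanning at least 0.1, which left out 34.4% of them. OvacD8-2 and OvacD8-3 correlated at 0.856, OvacD8-1 correlated with them at 0.293 and 0.343, and the 2D11 arrays correlated with each other at 0.610 to 0.668. The part of RNA input, RNA quality, hybridisation or a shared day of handling in the results was not tested. Without OvacD8-1, this split and the groups cannot be told apart. In bulk RNA, fewer cells of a type and less RNA per cell cannot be told apart either.

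Promoter sequences are shown for the genes with the largest departures on a single OvacD8 array that had an entry, because HIF binds a fixed core motif. They run from 250 bases before to 50 bases after the start of transcription, on the strand of the gene, in the RefSeq table for GRCm38.p6. Capitals mark ACGTG, the HIF core, and GCGTG, its other form, on either strand. ACGTG lies inside CACGTG, the E-box read by MYC, and such a match counts for both. Tpi1 had no match. The position and strand are chr11:120948817-120949116 (+) for Slc16a3, chr8:45999801-46000100 (−) for Ankrd37, chr6:124814109-124814408 (−) for Tpi1, chr12:54203825-54204124 (−) for Egln3, chr7:138909457-138909756 (−) for Bnip3 and chr2:71872974-71873273 (+) for Pdk1, the first of 2 promoters listed for that gene.
Slc16a3: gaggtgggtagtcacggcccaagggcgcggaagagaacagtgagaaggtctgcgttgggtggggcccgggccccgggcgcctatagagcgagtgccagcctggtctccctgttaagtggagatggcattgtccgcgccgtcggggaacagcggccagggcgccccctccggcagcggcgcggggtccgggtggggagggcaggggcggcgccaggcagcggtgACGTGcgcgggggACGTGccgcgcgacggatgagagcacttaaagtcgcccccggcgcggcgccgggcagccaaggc
Ankrd37: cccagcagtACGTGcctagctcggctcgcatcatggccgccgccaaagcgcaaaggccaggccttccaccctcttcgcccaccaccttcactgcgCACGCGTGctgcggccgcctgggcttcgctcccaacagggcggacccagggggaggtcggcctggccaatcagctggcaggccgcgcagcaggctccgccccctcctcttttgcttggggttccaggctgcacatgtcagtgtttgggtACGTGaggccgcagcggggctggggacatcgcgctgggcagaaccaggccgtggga
Tpi1: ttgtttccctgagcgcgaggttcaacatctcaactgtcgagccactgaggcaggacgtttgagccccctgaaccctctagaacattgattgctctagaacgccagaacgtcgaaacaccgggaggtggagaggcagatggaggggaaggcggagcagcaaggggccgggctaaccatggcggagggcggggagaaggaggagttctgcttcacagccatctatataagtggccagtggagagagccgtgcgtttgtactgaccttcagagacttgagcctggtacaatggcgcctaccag
Egln3: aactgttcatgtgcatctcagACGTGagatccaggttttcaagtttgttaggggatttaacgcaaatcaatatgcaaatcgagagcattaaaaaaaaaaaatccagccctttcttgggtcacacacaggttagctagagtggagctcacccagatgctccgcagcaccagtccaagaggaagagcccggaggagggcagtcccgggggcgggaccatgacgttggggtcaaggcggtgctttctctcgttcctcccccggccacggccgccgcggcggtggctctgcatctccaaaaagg
Bnip3: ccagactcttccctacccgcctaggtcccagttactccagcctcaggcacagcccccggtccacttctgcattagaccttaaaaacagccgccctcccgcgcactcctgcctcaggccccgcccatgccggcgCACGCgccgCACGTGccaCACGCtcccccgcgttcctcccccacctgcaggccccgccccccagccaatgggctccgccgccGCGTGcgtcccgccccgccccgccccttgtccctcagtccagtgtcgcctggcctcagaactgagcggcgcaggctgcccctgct
Pdk1: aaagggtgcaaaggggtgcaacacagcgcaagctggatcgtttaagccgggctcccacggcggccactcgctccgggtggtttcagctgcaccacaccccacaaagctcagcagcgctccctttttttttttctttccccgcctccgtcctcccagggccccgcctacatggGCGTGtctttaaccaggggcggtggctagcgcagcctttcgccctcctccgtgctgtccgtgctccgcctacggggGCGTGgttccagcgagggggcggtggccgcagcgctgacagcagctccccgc

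Slc16a3 held 2 matches to ACGTG, Egln3 held 1, Ankrd37 held 4 matches in all, and Bnip3 held 5, of which 2, on opposite strands, lay in its single CACGTG. Of the 33 genes, 31 had at least 1 promoter in the table, and 24 of those 31 (77.4%) held ACGTG, against 21.8% of all 27025 genes in it. Either form stood in 35 of the 43 promoters of these genes (81.4%), against 14380 of 32851 promoters (43.8%), and CACGTG in 5 (11.6%), against 7.15%. ACGTG stood in 10 of 14 enzyme genes and in 8 of 8 HIF targets outside glycolysis with an entry. Slc2a3 and Ndrg1 had no entry. Among the genes that were not highest on OvacD8-2 and OvacD8-3, Car9 and Hif1a held ACGTG and Eno3 and Pfkfb4 held GCGTG. Tpi1 and Gys1, which were highest there, held neither form in these windows. A match is a description of the letters and not a measured binding site. The set was chosen to hold HIF targets, so a larger share with the HIF core may follow from that choice and is not a result of these arrays. The promoters of all genes were not matched to the set in base content or in number per gene.

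The transporters were all high on OvacD8-2 and OvacD8-3. Each was lower on every 2D11 array than on every OvacD8 array, against 10.7% of all genes. Slc16a3 (MCT4), which exports lactate, had −0.0030, −0.12 and −0.11 on the 2D11 arrays, against 0.0030, 3.36 and 4.10 on OvacD8-1, OvacD8-2 and OvacD8-3. OvacD8-1 was barely above 2D11, whereas the 2D11 mean lay 10.9-fold below OvacD8-2 and 18.1-fold below OvacD8-3. Its difference was −2.57 ± 1.13 over 6 arrays (adjusted p = 0.314) and −3.81 ± 0.24 without OvacD8-1 (adjusted p = 0.00252).

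Slc2a1 (GLUT1), the main glucose importer of activated T cells, had −0.17, −0.34 and −0.20 in 2D11, against −0.022 on OvacD8-1, 2.36 on OvacD8-2 and 2.29 on OvacD8-3. It differed by −1.78 ± 0.70 (adjusted p = 0.259), and by −2.56 ± 0.065 without OvacD8-1 (adjusted p = 0.000357). Slc2a3 (GLUT3), a high-affinity glucose importer, had −0.19, −0.31 and −0.64 in 2D11, against 0.043, 2.14 and 1.99 on OvacD8-1, OvacD8-2 and OvacD8-3. It differed by −1.77 ± 0.62 (adjusted p = 0.203), and by −2.44 ± 0.16 without OvacD8-1 (adjusted p = 0.00263). For both importers OvacD8-1 was again just above 2D11, and OvacD8-2 and OvacD8-3 were close to each other.

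**Figure D3:**
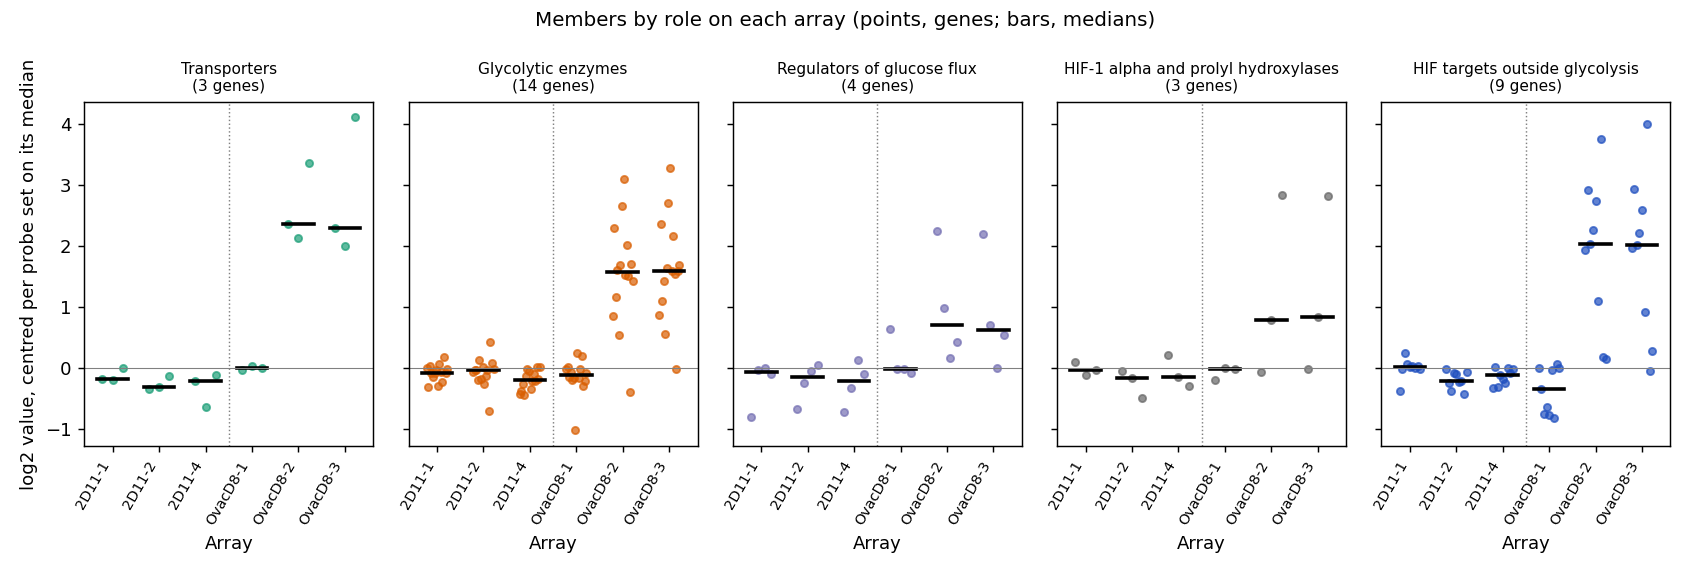
Log2 values of the measured genes (points) on each array, in a panel for each role, with 2D11 arrays left of OvacD8 arrays and the median of the role as a line. The medians of transporters, enzymes and HIF targets outside glycolysis stand above 1 on OvacD8-2 and OvacD8-3 only.

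Of the 14 glycolytic enzymes measured, 13 (92.9%) were highest on OvacD8-2 and OvacD8-3, against 13.9% of all genes. For 11 of these (78.6% of the 14) it was by at least 1, against 1.36%. The enzyme median was −0.071, −0.027 and −0.19 on the 2D11 arrays, against −0.11 on OvacD8-1, 1.57 on OvacD8-2 and 1.59 on OvacD8-3. The 2D11 enzyme medians averaged −0.095 ± 0.083 and the OvacD8 ones 1.02 ± 0.98 (SD, n = 3 each), so the spread within OvacD8 was nearly as large as the difference. Over 6 arrays 0 enzymes passed, against 6.67% of all genes, and without OvacD8-1 13 passed as lower in 2D11, against 9.42%. Every step measured from hexokinase to lactate dehydrogenase had an enzyme among the 13, except enolase, which was measured here through Eno3 alone. By probe set, OvacD8-2 and OvacD8-3 were highest for 28 of 30 (93.3%), against 12.6% of all single-gene probe sets.

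In the first, energy-consuming steps, Hk2, the inducible hexokinase that traps glucose in the cell, had −0.30, −0.022 and −0.37 in 2D11, against 0.022, 2.29 and 2.35 on OvacD8-1, OvacD8-2 and OvacD8-3. Its 2D11 mean lay 5.73-fold below OvacD8-2 and 6.01-fold below OvacD8-3, and the difference was −1.79 ± 0.69 (adjusted p = 0.251), and −2.55 ± 0.12 without OvacD8-1 (adjusted p = 0.00129). Hk1, the constitutive hexokinase, differed less: −0.0032, −0.055 and −0.43 in 2D11, against −0.019, 0.85 and 0.87 in OvacD8 (−0.73 ± 0.29 over 6 arrays, adjusted p = 0.262, and −1.02 ± 0.15 without OvacD8-1, adjusted p = 0.0191). The phosphofructokinase genes, whose product makes the committed step, differed without OvacD8-1 by −1.75 ± 0.13 for Pfkp (adjusted p = 0.00378), −1.22 ± 0.10 for Pfkl (adjusted p = 0.00473) and −0.60 ± 0.098 for Pfkm, the muscle form (adjusted p = 0.0252). Over 6 arrays these differences were −1.23 ± 0.48, −0.79 ± 0.39 and −0.35 ± 0.24, with adjusted p of 0.26, 0.377 and 0.562. Probe sets of Pfkl disagreed: the 2D11 mean minus the mean of OvacD8-2 and OvacD8-3 was −1.98, −1.97 and 0.29. Those of Pfkp gave −1.55, −2.43 and −1.29. The size thus varied among isoforms of the same step and among probe sets of 1 isoform, so the order of Pfkp and Pfkl is not settled. The difference between isoforms was not tested.

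Aldolases split the 6-carbon sugar. Aldoa, the main form in most tissues, had −0.077, −0.18 and −0.0099 in 2D11, against −0.15, 1.70 and 1.63 on OvacD8-1, OvacD8-2 and OvacD8-3. It differed by −1.15 ± 0.55 (adjusted p = 0.354), and by −1.76 ± 0.062 without OvacD8-1 (adjusted p = 0.000702). Aldoc, the form known from brain, had −0.030, 0.026 and −0.050 in 2D11, against −1.02 on OvacD8-1, 2.66 on OvacD8-2 and 2.71 on OvacD8-3. By gene mean OvacD8 thus held both the lowest and the highest Aldoc arrays, with 2D11 between them. The low value came from a single probe set, which had −2.03 on OvacD8-1. The other Aldoc probe set had −0.0045 on OvacD8-1, against −0.011, 0.0045 and −0.033 in 2D11. The group difference of Aldoc was −1.47 ± 1.10 (adjusted p = 0.633), and −2.70 ± 0.035 without OvacD8-1 (adjusted p = 9.27e-05).

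Among the enzymes after aldolase, Tpi1, which interconverts the triose phosphates, differed most. It had −0.30, −0.25 and −0.34 in 2D11, against 0.25 on OvacD8-1, 3.09 on OvacD8-2 and 3.27 on OvacD8-3, and the groups did not overlap. Its difference was −2.50 ± 0.88 (adjusted p = 0.205), and −3.48 ± 0.065 without OvacD8-1 (adjusted p = 0.000174). Pgk1, the first ATP-forming enzyme, had −0.065, −0.021 and −0.090 in 2D11, against −0.012, 2.01 and 2.17 in OvacD8. Pgam1, which moves the phosphate of phosphoglycerate, had −0.23, −0.70 and −0.20 in 2D11, against 0.20, 1.51 and 1.54 in OvacD8. In both, OvacD8-1 was the lowest OvacD8 array and still above every 2D11 array. Pgk1 differed by −1.45 ± 0.63 (adjusted p = 0.307), and by −2.15 ± 0.057 without OvacD8-1 (adjusted p = 0.000388). Pgam1 differed by −1.46 ± 0.42 (adjusted p = 0.139), and by −1.91 ± 0.18 without it (adjusted p = 0.00662).

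Gapdh, which oxidises the triose and is often taken as a stable control gene, had 0.076, −0.12 and −0.21 in 2D11, against −0.16, 1.53 and 1.59 on OvacD8-1, OvacD8-2 and OvacD8-3. Its mean came only from 3 probe sets that serve as array controls. Pkm, the pyruvate kinase, was 3.39-fold lower in the 2D11 mean than on OvacD8-2 and 3.14-fold lower than on OvacD8-3. Ldha, which turns pyruvate into lactate, had −0.017, −0.013 and 0.013 in 2D11, against −0.073, 1.42 and 1.70 in OvacD8. For Pkm and Ldha OvacD8-1 was the lowest of the 6 arrays, close to 2D11. Over 6 arrays the differences were −1.07 ± 0.52 for Gapdh, −1.09 ± 0.56 for Pkm and −1.02 ± 0.49 for Ldha, with adjusted p of 0.367, 0.398 and 0.364. Without OvacD8-1 they were −1.65 ± 0.096, −1.71 ± 0.092 and −1.57 ± 0.089, with adjusted p of 0.00214, 0.00176 and 0.00198. Eno3, the muscle enolase, ran the other way, with 0.19, 0.43 and 0.013 in 2D11, against −0.29, −0.39 and −0.013 in OvacD8. The groups did not overlap, and its difference of 0.44 ± 0.15 did not pass (adjusted p = 0.19), nor did 0.41 ± 0.18 without OvacD8-1 (adjusted p = 0.261).

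Pdk1 came closest to passing over all arrays. This kinase switches off pyruvate dehydrogenase and so keeps pyruvate out of the mitochondria. It had −0.79, −0.67 and −0.72 in 2D11, against 0.64 on OvacD8-1, 2.24 on OvacD8-2 and 2.19 on OvacD8-3. The groups did not overlap, and OvacD8-1 lay between 2D11 and the other OvacD8 arrays. Its difference was −2.42 ± 0.47 (adjusted p = 0.0546), and −2.94 ± 0.044 without OvacD8-1 (adjusted p = 0.000122). Its probe sets disagreed: taken one by one over 6 arrays, they differed by −3.38, −4.12, −2.09 and −0.083. The last of these was not highest on OvacD8-2 and OvacD8-3. Over 6 arrays Pdk1 passed with its widest probe set (adjusted p = 0.0465), after quantile normalization (0.0215), and when genes spanning under 0.1 were left out (0.0178). It was the only gene of the set at least 2-fold lower in the 2D11 mean than on OvacD8-1, at 2.57-fold, against 2.1% of all genes, and 0 of the 33 were at least 2-fold higher, against 1.56%.

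The other regulators differed less. Pfkfb3, which makes the activator of phosphofructokinase, had −0.036, −0.24 and −0.32 in 2D11, against −0.012, 0.99 and 0.70 in OvacD8, and its difference was −0.76 ± 0.28 (adjusted p = 0.226), and −1.04 ± 0.13 without OvacD8-1 (adjusted p = 0.0137). Gys1, the glycogen synthase outside liver, differed by −0.34 ± 0.18 (adjusted p = 0.416), and by −0.53 ± 0.068 without OvacD8-1 (adjusted p = 0.0146). Pfkfb4, a further enzyme of the Pfkfb family, had −0.00023, −0.042 and 0.14 in 2D11, against −0.013, 0.16 and 0.00023 in OvacD8, and did not pass in either fit.

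Hif1a, the oxygen-controlled subunit, did not follow the enzymes. It had 0.099, −0.041 and 0.21 in 2D11, against −0.19, −0.057 and −0.014 on OvacD8-1, OvacD8-2 and OvacD8-3, and its difference was 0.18 ± 0.082 (adjusted p = 0.342), and 0.13 ± 0.083 without OvacD8-1 (adjusted p = 0.499). Its 4 probe sets disagreed: taken one by one, 1 passed at 0.24 ± 0.033 higher in 2D11 (adjusted p = 0.0273) and 1 at 0.48 ± 0.079 (adjusted p = 0.0489), and the other two did not pass. The array measures RNA, and HIF-1 alpha is controlled mainly as a protein.

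The prolyl hydroxylases mark the alpha subunit for degradation and are themselves HIF targets. Egln3 (PHD3) had −0.034, −0.48 and −0.29 in 2D11, against −0.019 on OvacD8-1, 2.83 on OvacD8-2 and 2.82 on OvacD8-3, and its difference was −2.15 ± 0.86 (adjusted p = 0.267), and −3.10 ± 0.14 without OvacD8-1 (adjusted p = 0.00124). Egln1 (PHD2), the main oxygen sensor, had −0.10, −0.17 and −0.15 in 2D11, against 0.0084, 0.79 and 0.84 in OvacD8, and differed by −0.69 ± 0.24 (adjusted p = 0.209), and by −0.96 ± 0.031 without OvacD8-1 (adjusted p = 0.00061). Both were highest on the same arrays as the enzymes.

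The HIF targets outside glycolysis followed the same arrays as the enzymes. Of the 9 measured, 8 (88.9%) were highest on OvacD8-2 and OvacD8-3, against 13.9% of all genes, and 6 of them by at least 1, against 1.36%. The same 8 passed as lower in 2D11 without OvacD8-1, against 9.42%. The median of the 9 was 0.018, −0.22 and −0.10 on the 2D11 arrays, against −0.34 on OvacD8-1, 2.04 on OvacD8-2 and 2.01 on OvacD8-3. The 2D11 median was thus lower than OvacD8-2 and OvacD8-3 by more than for the enzymes, and this difference between the lists was not tested. The median difference was −1.32 over 6 arrays and −2.19 without OvacD8-1, beside −1.12 and −1.73 for the enzymes, and the median over all genes was 0.0069 over 6 arrays. By probe set, OvacD8-2 and OvacD8-3 were highest for 16 of 19 (84.2%), against 12.6% of all single-gene probe sets.

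Ankrd37, an ankyrin-repeat protein known as a HIF-1 target, differed most among all 33 genes on OvacD8-2. It had −0.0017, −0.22 and 0.0017 in 2D11, against −0.81 on OvacD8-1, 3.75 on OvacD8-2 and 3.99 on OvacD8-3. The 2D11 arrays lay between OvacD8-1 and the other OvacD8 arrays, 14.2-fold below OvacD8-2 and 16.7-fold below OvacD8-3 in the mean. Its difference was −2.38 ± 1.40 (adjusted p = 0.48), and −3.94 ± 0.11 without OvacD8-1 (adjusted p = 0.000453).

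Bnip3, which directs mitochondria to autophagy, had −0.015, −0.24 and 0.015 in 2D11, against −0.34, 2.92 and 2.93 on OvacD8-1, OvacD8-2 and OvacD8-3. Ndrg1, a stress-response gene induced by hypoxia, had 0.018, −0.087 and −0.18 in 2D11, against −0.76, 2.73 and 2.58 in OvacD8. Ero1a, which oxidises protein disulfide isomerase in the endoplasmic reticulum, had 0.069, −0.080 and −0.10 in 2D11, against −0.63, 2.26 and 2.21 in OvacD8. For all of these OvacD8-1 was, by gene mean, the lowest of the 6 arrays and OvacD8-2 and OvacD8-3 the highest. P4ha1, a subunit of the collagen prolyl hydroxylase, showed the same order. It had 0.25, −0.37 and −0.31 in 2D11, against −0.74, 2.04 and 2.01 in OvacD8. The low place of OvacD8-1 did not hold in every probe set. A probe set of P4ha1 had −0.38 on OvacD8-1 and −0.43 on 2D11-4, and a probe set of Ndrg1 had −0.069 and −0.23. Over 6 arrays Bnip3, Ndrg1, Ero1a and P4ha1 differed by −1.91 ± 0.98, −1.60 ± 1.02, −1.32 ± 0.86 and −1.25 ± 0.84, with adjusted p of 0.395 to 0.573. Without OvacD8-1 they differed by −3.004 ± 0.090, −2.74 ± 0.081, −2.27 ± 0.063 and −2.17 ± 0.22, with adjusted p of 0.000444 to 0.00759.

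Vegfa, the growth factor of blood vessels, had −0.37, −0.0073 and −0.33 in 2D11, against 0.0073, 1.93 and 1.97 on OvacD8-1, OvacD8-2 and OvacD8-3. The groups did not overlap, and its difference was −1.54 ± 0.59 (adjusted p = 0.246), and −2.19 ± 0.13 without OvacD8-1 (adjusted p = 0.00214). Ddit4 (REDD1), which restrains MTOR complex 1, had 0.030, −0.23 and −0.24 in 2D11, against −0.030, 1.10 and 0.91 in OvacD8, and differed by −0.81 ± 0.32 (adjusted p = 0.269), and by −1.15 ± 0.12 without OvacD8-1 (adjusted p = 0.00758). Higd1a, a mitochondrial protein, differed by −0.17 ± 0.073 (adjusted p = 0.289), and by −0.24 ± 0.048 without OvacD8-1 (adjusted p = 0.0434), and 2 of its 3 probe sets were not highest on OvacD8-2 and OvacD8-3. Car9, the carbonic anhydrase of the cell surface, had 0.037, −0.42 and −0.072 in 2D11, against 0.063, 0.19 and −0.037 in OvacD8, and did not pass in either fit.

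**Figure D4:**
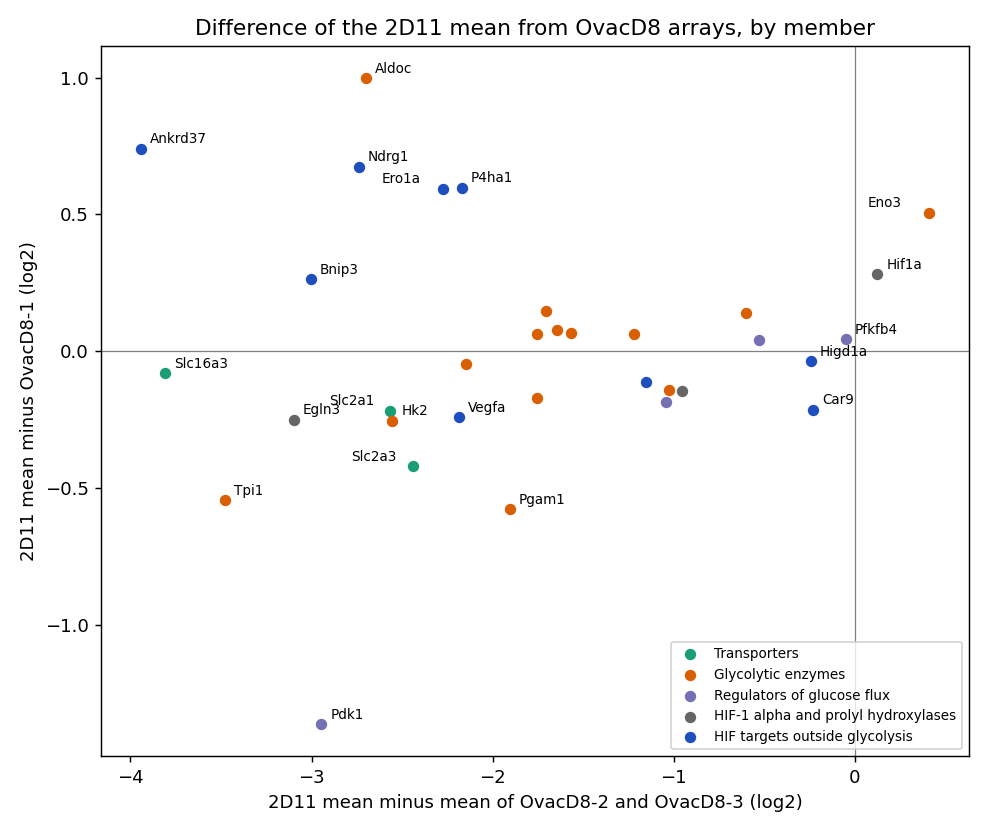
For each of the 33 genes, the log2 difference of the 2D11 mean minus OvacD8-1 (vertical axis) against the 2D11 mean minus the mean of OvacD8-2 and OvacD8-3 (horizontal axis), coloured by role. All genes but Eno3 and Hif1a lie left of 0, Aldoc and the HIF target Ankrd37 lie highest, and Pdk1 lies lowest.

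OvacD8-1 did not treat the genes alike. It lay below all 2D11 arrays for 11 of the 33 genes, against 22.2% of all genes, above all of them for 15, against 29.3%, and within their range for 7, against 48.5%. By role, it was above all 2D11 arrays for 3 of 3 transporters, 5 of 14 enzymes and 3 of 9 HIF targets outside glycolysis. It was below all of them for 0 transporters, 5 enzymes and 5 HIF targets. Among these, Aldoc, P4ha1 and Ndrg1 each had a probe set in which OvacD8-1 was not below all 2D11 arrays. A limma fit that also held the spike-in split compares the 2D11 arrays with OvacD8-1 as the only OvacD8 array on its side, and so assumes that OvacD8-1 varies as the others do. In it, Aldoc was higher in 2D11 by 1.00 (adjusted p = 0.00248), Ndrg1 by 0.67 (adjusted p = 0.0392) and Ero1a by 0.59 (adjusted p = 0.0303), where 2.83% of all genes passed as higher. Pdk1 was lower in 2D11 by −1.36 (adjusted p = 0.0021) and Tpi1 by −0.55 (adjusted p = 0.0383), where 4.66% passed as lower. The other 28 genes did not pass, among them Ankrd37 at 0.74 (adjusted p = 0.0647), P4ha1 at 0.60 (adjusted p = 0.383) and Bnip3 at 0.26 (adjusted p = 0.346).

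Smaller shares of the rest of the pathway were highest on these arrays. Of 29 further HIF targets, 15 (51.7%) were highest on OvacD8-2 and OvacD8-3, against 13.9% of all genes, and 6 of them by at least 1, against 1.36%. The median difference of the 29 was −0.16. Over 6 arrays 2 of the 29 (6.9%) passed, near the 6.67% of all genes. Angptl4, a secreted inhibitor of lipoprotein lipase, was 1 of 2 that passed over 6 arrays, with −0.69, −0.83 and −0.85 in 2D11, against 0.93, 0.67 and 0.97 in OvacD8 (difference −1.65 ± 0.097, adjusted p = 0.00173). Unlike the enzymes, it was high on OvacD8-1 too. Stc2, a secreted glycoprotein, passed in the other direction at 1.40 ± 0.24 (adjusted p = 0.0379). P4ha2, the paralogue of P4ha1, chosen after its values were seen, had −0.017, 0.0068 and −0.027 in 2D11, against −0.0068, 2.96 and 3.02 in OvacD8. Among 15 other regulators of the HIF pathway, 4 (26.7%) were highest on OvacD8-2 and OvacD8-3, against 13.9% of all genes, and 0 by at least 1. Rbx1, a subunit of the VHL ubiquitin ligase, passed as higher in 2D11 at 0.50 ± 0.071 (adjusted p = 0.0228).

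Of 20 further glycolysis genes, mostly isoforms of other tissues and transporters, 1 (5%) was highest on OvacD8-2 and OvacD8-3, against 13.9% of all genes. Over 6 arrays 0 of the 20 passed in limma, against 6.67%, with Hk3 the widest of them (adjusted p = 0.707). Of 13 glycogen genes, 7 (53.8%) were highest on OvacD8-2 and OvacD8-3, against 13.9% of all genes. Over 6 arrays 2 of the 13 (15.4%) passed as lower in 2D11, against 3.37%. Gyg, the primer of glycogen synthesis, had −0.79, −0.83 and −0.88 in 2D11, against 0.75, 1.91 and 2.00 in OvacD8 (difference −2.38 ± 0.36, adjusted p = 0.028). Pygb, the brain form of glycogen phosphorylase, differed by −0.47 ± 0.042 (adjusted p = 0.00649). OvacD8-1 lay above all 2D11 arrays for both genes.

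**Figure D5:**
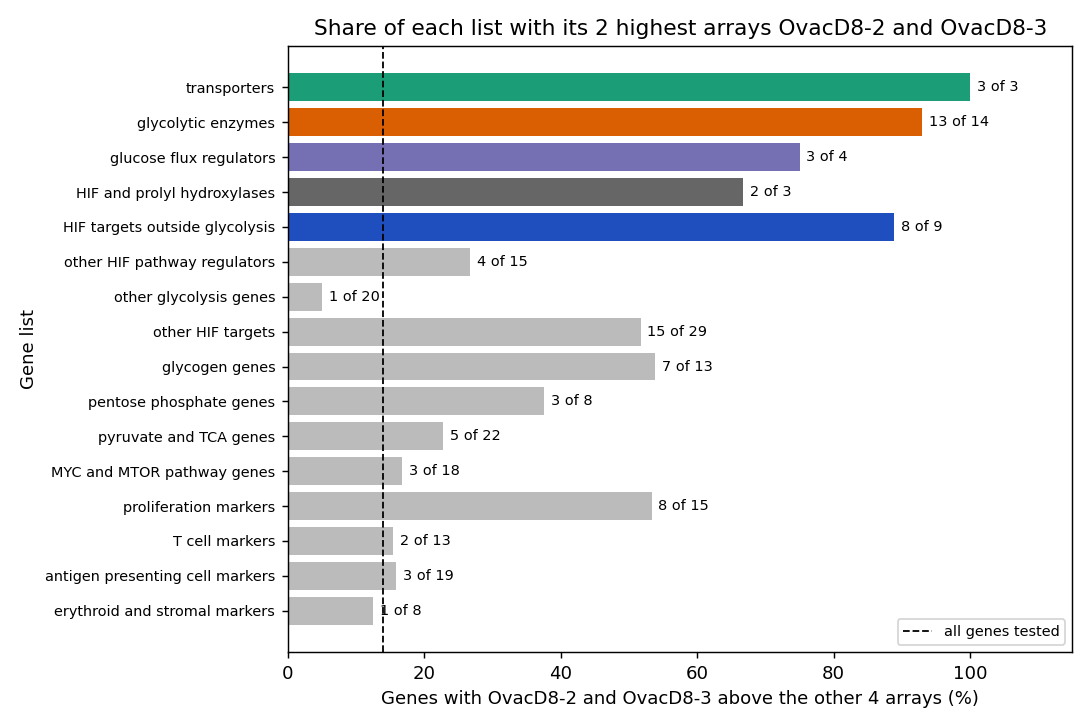
Percent of the measured genes of each list for which OvacD8-2 and OvacD8-3 were both above all of the other 4 arrays, with the same percent over all 18194 genes (13.9%) as a line. The transporters, enzymes and HIF targets outside glycolysis of the set have the highest shares, followed by its regulators of glucose flux and its HIF and prolyl hydroxylase genes.

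Markers of other states and cells were set beside these arrays. Of 15 proliferation genes, 8 (53.3%) were highest on OvacD8-2 and OvacD8-3, against 13.9% of all genes, and 1 of them by at least 1, against 1.36%. The median of the 15 was −0.076, 0.16 and −0.15 in 2D11, against −0.22, 0.20 and 0.20 in OvacD8. Of 19 markers of antigen-presenting cells, which the cultures contained, 3 (15.8%) were highest there, near the 13.9% of all genes, and their median ranged over −0.0055 to 0.0044 in 2D11, against −0.020 to 0.012 in OvacD8. This median hides markers that differed: the 2D11 mean was lower than OvacD8-1 by at least 1 for 7 of the 19, against 2.1% of all genes. H2-Ab1, a class II chain and 1 of these markers, had −0.68, −0.51 and −0.77 in 2D11, against 0.60, 1.35 and 1.63 in OvacD8 (adjusted p = 0.0294). Cd68, a macrophage marker chosen after its values were seen, had −0.71, −0.51 and −0.48 in 2D11, against 0.48, 3.34 and 3.44 in OvacD8. Other markers, also chosen after their values were seen, were highest on OvacD8-1 instead. Lyz2, the lysozyme of myeloid cells, had 0.49, −0.49 and 0.59 in 2D11, against 2.70 on OvacD8-1, −1.91 on OvacD8-2 and −2.82 on OvacD8-3. Cd74, the class II invariant chain, had 0.17, 0.30 and −0.17 in 2D11, against 2.15, −1.25 and −1.19 in OvacD8. Without OvacD8-1, Lyz2, Cd74 and H2-Aa passed as higher in 2D11 (adjusted p of 0.036, 0.0122 and 0.0118). The 2D11 means of Csf1r, H2-Aa and H2-Eb1 differed from OvacD8-1 by −1.20, −1.80 and −2.59, so OvacD8-1 stood apart from its group in these markers as well. The median of 13 T cell genes ranged over −0.049 to 0.066 in 2D11, against −0.013 to 0.013 in OvacD8. The part of proliferation or of other cells in the results on glycolysis was not tested, and centred values do not show whether a defining marker was near background.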

How the data were processed

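Expression was measured on 6 mouse arrays, with RMA (no version given) per the submitters' processing notes. The values the authors deposited were read as log2: the base is not given in the sources used here, and the largest span of a probe set, 11.37, exceeds what natural logs of 16-bit signals can reach (11.09). All probe sets had a median within 5e-07 of 0, so levels had been removed. RMA draws probe sets near background together, and differences there understate the change. Per the labels' protocols, RNA was extracted with an RNeasy kit, amplified with Ovation V2 and labelled with biotin. The number of arrays limits the precision.

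Of the 45101 probe sets, the platform annotation named 1 gene for 34958, several for 932, and did not list 9211. RefSeq (GRCm38.p6) held 34754 of their Entrez identifiers and changed 0 symbols. The mean of a gene's single-gene probe sets was its value, for 18194 genes. Groups were compared with limma 3.58.1 in R 4.3.3 (lmFit and eBayes, two-sided), with Benjamini-Hochberg adjustment over all genes, and errors are standard errors of the fit. The threshold was an adjusted p under 0.05. On simulated data of 18194 genes for this comparison, 76 of 100 genes changed by 1 and 87 of 100 changed by 2 were recovered. In the same data 20 unchanged genes were called. The changed genes were drawn at random from those spanning at least 0.1, with independent noise for each gene. No simulated array departed over many genes as OvacD8-1 did, so these shares do not apply to the 33 genes. The spike-in split put arrays with a mean under −1 apart. Outside the set, up to 3 genes that passed were named per list, or the gene with the widest difference where none did. The genes and lists were chosen with earlier results of these data known. Alternatives covered the choice of probe sets, normalization, filter, variance model, replicate block, spike-in split and leaving out each array. Replicate numbers 1 and 2 were shared by both groups. Deviations from the group means correlated at 0.0010 for number 1 and 0.172 for number 2, so the numbers were not taken as pairs.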

Additional observations from a re-analysis of the deposited data

How the results depend on the processing

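The median difference was −1.12 for the enzymes and −1.32 for the HIF targets outside glycolysis, and both reversed with the spike-in split in the model, to 0.062 and 0.26. Under the other alternatives that were run both stayed negative, while their size moved most with OvacD8 arrays. Leaving out 1 array gave −1.73 to −0.82 for the enzymes and −2.19 to −0.83 for the HIF targets, with −1.73 and −2.19 without OvacD8-1, and −0.83 and −0.85 for the HIF targets without OvacD8-2 and OvacD8-3. The fits on these medians beyond those that changed gene values, scaling or filter were chosen after seeing the data. Counts of genes past the threshold moved too. Over all genes 1214 passed, against 7391 with array weights, a fit that stopped before it converged, 191 with the replicate block and 1827 with probe sets one by one. Leaving out 1 array gave 523, 599 and 697 without 2D11-1, 2D11-2 and 2D11-4, and 3132, 535 and 565 without OvacD8-1, OvacD8-2 and OvacD8-3. Of the 1214, 600 were higher and 614 lower in 2D11, against 452 and 734 after quantile normalization. Of the 33 genes 0 passed, against 1 with the widest probe set, 1 after quantile normalization and 1 among genes spanning at least 0.1, in each case Pdk1. The count was 30 with array weights, 5 with the spike-in split in the model, 2 with probe sets one by one (both Hif1a), and 0 to 29 when 1 array was left out, 29 without OvacD8-1. Enzymes passed in 13 cases with array weights, 2 with the spike-in split and 0 to 13 on leaving out 1 array, and HIF targets outside glycolysis in 8, 2 and 0 to 8. The replicate block gave 0 of the 33 genes. Leaving out the array control probe sets, chosen after seeing the data, gave 1214 genes and 0 of 32. With that split in the model the sign reversed for Pfkl (0.063), Pfkm (0.14), Aldoa (0.062), Aldoc (1.00), Gapdh (0.076), Pkm (0.15), Ldha (0.067), Pfkfb4 (0.044), Gys1 (0.041), Bnip3 (0.26), P4ha1 (0.60), Ero1a (0.59), Ndrg1 (0.67) and Ankrd37 (0.74), since OvacD8-1 is then the only OvacD8 array on its side of the split. Pfkfb4 also reversed with array weights (0.0038), without 2D11-2 (0.018) and without OvacD8-2 (0.038), within −0.071 to 0.038 on leaving out 1 array; Hif1a reversed with its widest probe set (−0.087), Car9 with array weights (0.027) and Higd1a with the median of its probe sets (0.010). The cause of these reversals was not tested.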

Other observations

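Probe sets that name more than 1 gene followed the same arrays in part. Those of Bnip3l, a mitophagy receptor related to Bnip3, also name Bnip3l-ps, and the first of these 3 had −0.016, −0.063 and 0.016 in 2D11, against −0.19, 0.48 and 0.49 on OvacD8-1, OvacD8-2 and OvacD8-3. OvacD8-2 and OvacD8-3 were the highest arrays there, by less than for Bnip3. One probe set shared by Gapdh and Gapdh-ps15, had −0.0091, −0.23 and −0.38 in 2D11, against 0.0091, 1.77 and 1.67 in OvacD8, while a further probe set of the same genes reached 0.60 on OvacD8-3 and 0.11 on OvacD8-2.

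Of 18 MYC and MTOR pathway genes, Mycn and Eif4ebp1 were the 2 that passed as lower in 2D11 (11.1%), against 3.37% of all genes. As higher, 0 passed, against 3.3%. The groups did not overlap for 4 genes lower in 2D11 (22.2%), against 10.7%, and for 4 higher in 2D11 (22.2%), against 12.6%. The higher ones were Mnt, Mtor, Tsc1 and Sesn1, and the median difference of the 18 was −0.032. Mycn, a MYC family transcription factor, had −1.43, −1.25 and −1.37 in 2D11, against 1.28, 1.28 and 1.28 in OvacD8 (difference −2.63 ± 0.049, limma, adjusted p = 0.000158). Eif4ebp1, a translation repressor that MTOR switches off, had −1.24, −1.05 and −0.87 in 2D11, against 0.87, 1.66 and 1.80 in OvacD8 (adjusted p = 0.0116). Pgls and Pgd, enzymes of the pentose phosphate pathway, differed by −0.85 ± 0.15 (adjusted p = 0.0403) and −0.77 ± 0.12 (adjusted p = 0.0303). In the citric acid cycle, Idh3a and Fh1 were higher in 2D11 by 0.50 ± 0.063 (adjusted p = 0.0162) and 0.46 ± 0.059 (adjusted p = 0.018), while Idh3b, a further subunit of the enzyme of Idh3a, differed by −0.45 ± 0.057 (adjusted p = 0.0176). Hk3, a hexokinase known from myeloid cells, had 0.023, 0.0057 and −0.056 in 2D11, against 1.47 on OvacD8-1, −0.013 on OvacD8-2 and 0.0025 on OvacD8-3, and so stood out on OvacD8-1 alone.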
